A study of Rattus norvegicus with 12 samples.

Results

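The genes described here encode the enzymes that make fatty acids, triglycerides and cholesterol, together with the sterol regulatory element binding proteins (SREBPs) and the proteins that control them. Of 40 such genes, listed by symbol, 38 were measured by an array probe set that carries the symbol of that gene alone, out of 29214 probe sets in all, and where a gene had several the one with the highest mean intensity was used. They comprise 14 genes of fatty acid synthesis, 6 of triglyceride synthesis, 13 of sterol synthesis and 5 regulators. Hmgcs1 is not analysed here, and neither is Srebf1, whose symbol was found only on a probe set that also carries Pemt. RNA came from the second, the third and the fifth mammary glands of 12 young adult female Lewis rats, 1 Affymetrix Rat Gene 1.0 ST array per rat and 3 rats per group. All 12 rats were ovariectomized at about 10 weeks of age and injected subcutaneously from 14 days later. The groups received vehicle (DMSO with castor oil), 17β-estradiol (E2) at 4 μg per kg body weight per day, 3-methylcholanthrene (3-MC), a polycyclic aromatic hydrocarbon that activates the aryl hydrocarbon receptor (AHR), at 15 mg per kg per day, or both at these doses (E2 + 3-MC). Glands were taken 24 hr after the last of 3 daily treatments, a regimen the sample labels give as 48 h. The question was how an AHR ligand alters the response of the gland to estrogen.

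Values are linear signal intensities, and differences are on the scale of log2(intensity + 16), which understates the change of dim probe sets. A gene passed the test when limma gave a Benjamini-Hochberg adjusted p under 0.05 over all 23371 probe sets tested together with at least a 1.5-fold difference. All 38 genes were above the limit on low intensities. The glands were analysed whole, so epithelium, fat, vessels and connective tissue are mixed, and fewer cells of a type cannot be told apart from less RNA per cell. The array medians ran from 85.7 to 109.5, and with 3 rats in each group the smallest two-sided p of an exact permutation test is 0.1. Skeletal muscle transcripts varied widely between rats, and among the vehicle rats alone the log2 level of these markers ran from -3.89 to 2.20.

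SREBPs are transcription factors made as membrane proteins of the endoplasmic reticulum. SCAP escorts them to the Golgi apparatus for cleavage when sterols are scarce, and the INSIG proteins hold SCAP back when sterols are plentiful. Products of Srebf1 act mainly on genes of fatty acid and triglyceride synthesis and those of Srebf2 mainly on genes of cholesterol synthesis, while Mlxipl encodes ChREBP, which couples lipogenic genes to glucose supply. In the mammary gland these pathways serve the adipocytes of the fat pad and, during lactation, the secretory epithelium that makes milk fat.

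SREBPs are known to bind gene promoters next to the general factors NF-Y and SP1, whose sites are the CCAAT box and the GC box. A window of 250 bases at the start of each gene was therefore searched on both strands, in RefSeq sequences of the rat build GRCr8. The letters were ATTGG (the CCAAT box), GGGCGG (the GC box), CACGTG (the E-box) and TCACNCCAC (a sterol regulatory element, where N is any base). A CCAAT box can share its end with a GC box that follows it directly. Windows were found for 31 of the 40 genes, Hmgcs1 and Srebf1 included. A gene was counted if any of its windows held the letters (Srebf1 and Mlxipl had 2 each), while the shares set beside these counts are of single windows. ATTGG was present in 24 of 31 (77.4%), against 34.0% of all 33469 windows and 35.0% of those of protein-coding genes. GGGCGG was present in 22 of 31 (71.0%), against 30.5% and 38.9%. CACGTG was present in 4 of 31 (12.9%), against 5.59% and 6.16%, and TCACNCCAC in 0 of 31, against 0.974% and 0.897%. Among genes with a window, the CCAAT box was found in all branches, in 7 of 10 fatty acid genes, 3 of 4 triglyceride genes, 9 of 11 sterol genes and 5 of 6 regulators. A match is a description of these letters and not a bound site. The stretches below belong to a fatty acid gene, a triglyceride gene and a regulator that were lower with E2, and to a sterol gene that did not pass. They are Thrsp at chr1:161138965-161139214 (minus strand), Pnpla3 at chr7:117173278-117173484 (plus strand), Insig1 at chr4:8057813-8058019 (minus strand) and Msmo1 at chr16:29746863-29747112 (plus strand), written 5′ to 3′ along the strand of the gene and ending at the base before the annotated gene. All 250 bases are shown for Thrsp and Msmo1, and 207 for Pnpla3 and Insig1, where the annotated gene takes up the rest of the window searched. Capitals mark the CCAAT boxes, GC boxes and E-boxes.
Thrsp: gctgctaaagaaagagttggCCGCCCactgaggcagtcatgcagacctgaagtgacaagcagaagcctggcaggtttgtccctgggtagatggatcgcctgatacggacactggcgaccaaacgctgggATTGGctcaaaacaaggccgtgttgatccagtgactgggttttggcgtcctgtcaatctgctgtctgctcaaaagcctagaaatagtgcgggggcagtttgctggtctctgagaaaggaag
Pnpla3: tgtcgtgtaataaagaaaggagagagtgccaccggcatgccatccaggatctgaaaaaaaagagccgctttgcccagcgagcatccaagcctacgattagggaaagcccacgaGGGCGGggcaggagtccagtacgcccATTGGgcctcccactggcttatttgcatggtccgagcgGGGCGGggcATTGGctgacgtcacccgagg
Insig1: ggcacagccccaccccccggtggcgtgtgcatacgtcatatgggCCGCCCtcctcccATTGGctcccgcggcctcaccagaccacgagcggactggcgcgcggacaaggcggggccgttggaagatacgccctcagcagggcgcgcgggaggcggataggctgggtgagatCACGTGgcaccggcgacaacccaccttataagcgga
Msmo1: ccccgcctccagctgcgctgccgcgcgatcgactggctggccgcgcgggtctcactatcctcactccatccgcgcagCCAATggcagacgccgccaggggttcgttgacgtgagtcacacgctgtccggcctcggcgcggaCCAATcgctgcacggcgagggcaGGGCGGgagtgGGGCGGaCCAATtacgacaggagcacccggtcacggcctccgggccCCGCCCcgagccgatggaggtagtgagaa
Thrsp held 1 CCAAT box and 1 GC box, Pnpla3 held 2 of each, Insig1 held 1 of each with an E-box, and Msmo1 held 3 CCAAT boxes and 3 GC boxes.

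Treatment with E2 alone lowered 12 of the 20 transcripts of fatty acid and triglyceride synthesis, and no transcript of sterol synthesis passed the test. Compared with vehicle, 13 of 38 genes fell and 0 rose by limma, while 0.287% of all probe sets tested fell, 1.3% rose and 1.58% passed in either direction. The count was 0 of 38 by the methods' t-test, which called 7 probe sets in all, and 0 by limma's treat, which tests against the 1.5-fold threshold itself and called 24. The genes that fell were 9 of 14 in fatty acid synthesis, 3 of 6 in triglyceride synthesis, 0 of 13 in sterol synthesis and 1 of 5 regulators. The median log2 difference was -0.88 over the fatty acid genes, -0.99 over the triglyceride genes, -0.24 over the sterol genes and -0.05 over the regulators, against 0.02 over all probe sets tested. Differences between the branches were not tested. In 32 of 38 genes the E2 mean was below the vehicle mean (46.2% of all probe sets), and in 22 of 38 every E2 rat was below every vehicle rat (8.05% of all probe sets).

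**Figure D1:**
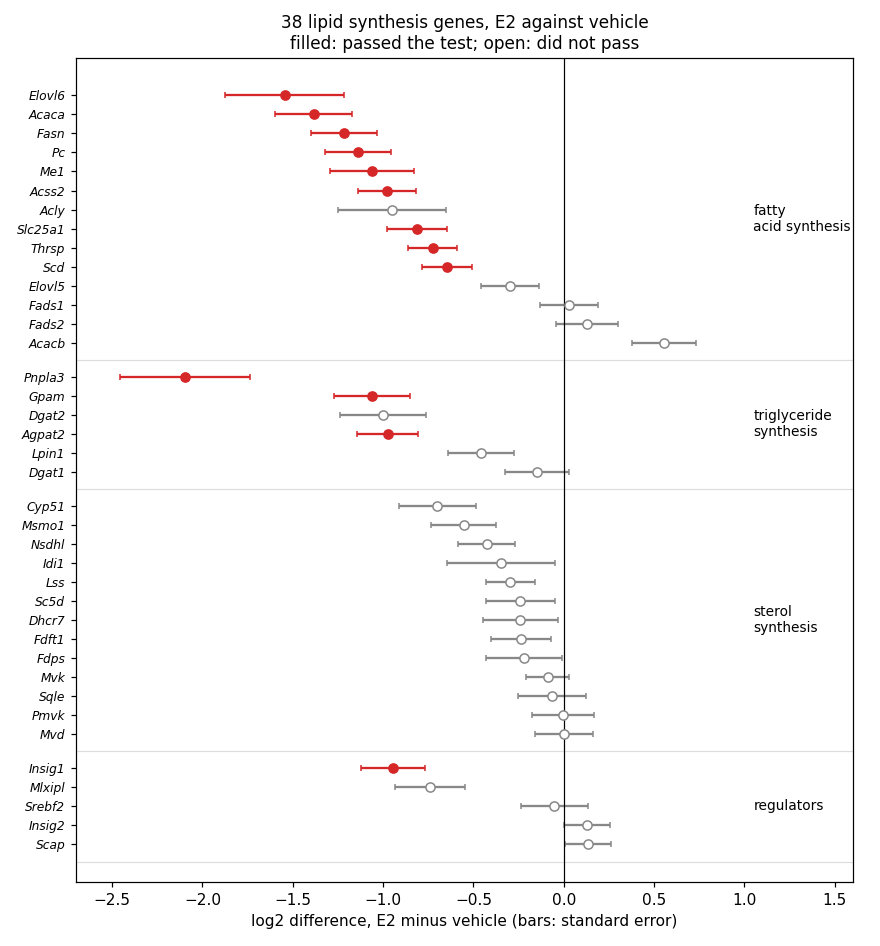
Log2 difference of E2 from vehicle for the 38 genes (horizontal axis, bars give the standard error), grouped by branch. Filled points passed the test. The 13 filled points lie among fatty acid genes, triglyceride genes and Insig1, and the sterol genes lie between -0.70 and 0.00 with 0 filled.

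The core enzymes of fatty acid synthesis fell. Fasn encodes fatty acid synthase, which builds palmitate. Its intensity was 2486, 2303 and 3662 in the vehicle rats, 1171, 1226 and 1134 in the E2 rats, 2245, 2955 and 3253 in the 3-MC rats and 1656, 1965 and 2017 in the E2 + 3-MC rats. The E2 rats were below every rat of the other groups, and the mean fell from 2817 ± 737 (SD, n = 3) to 1177 ± 46.4 (SD, n = 3). The difference of E2 from vehicle was -1.22 on the log2 scale (SE 0.18, 2.33-fold, limma adjusted p = 0.00557).

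Acaca encodes the acetyl-CoA carboxylase of the cytosol, which makes the malonyl-CoA used by fatty acid synthase. Intensities were 988, 538 and 1125 with vehicle, 338, 283 and 320.0 with E2, 882, 1068 and 1033 with 3-MC, and 562, 639 and 568 with E2 + 3-MC. The second vehicle rat had the lowest vehicle value and still exceeded every E2 rat. The log2 difference with E2 was -1.39 (SE 0.21, 2.61-fold, limma adjusted p = 0.00666). Its paralog Acacb, whose product sits at mitochondria and restrains fatty acid oxidation, ran the other way. Acacb intensities were 206, 284 and 209 with vehicle and 397, 341 and 308 with E2, so that the groups did not overlap (as for 10.1% of all probe sets with a higher E2 group), but the difference of 0.56 did not pass (SE 0.18, limma adjusted p = 0.175). It was the only gene of the 38 with a higher E2 mean at an unadjusted p under 0.05 (6.82% of all probe sets).

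Pc encodes pyruvate carboxylase, which replenishes the oxaloacetate needed to export acetyl units. It was measured at 826, 721 and 1130.0 with vehicle, 378, 390.3 and 400.2 with E2, 777, 1032 and 1109.5 with 3-MC, and 595, 696 and 845 with E2 + 3-MC. The E2 rats were the lowest 3 of the 12. The log2 difference with E2 was -1.14 (SE 0.18, 2.20-fold, limma adjusted p = 0.00802). Acss2 encodes the cytosolic acetyl-CoA synthetase, which activates acetate. It was measured at 471, 309.9 and 524 with vehicle, 218, 189 and 217 with E2, 470.4, 434 and 447 with 3-MC, and 238, 228 and 248 with E2 + 3-MC. Here the rats with E2, alone or with 3-MC, all lay below all rats without it, and the log2 difference of E2 from vehicle was -0.98 (SE 0.16, 1.97-fold, limma adjusted p = 0.00974).

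Among the other fatty acid genes, Elovl6, which elongates palmitate, fell by 1.55 on the log2 scale (limma adjusted p = 0.033). Me1, the malic enzyme that supplies NADPH, fell by 1.06 (limma adjusted p = 0.0364). The citrate carrier gene Slc25a1 fell by 0.81 (limma adjusted p = 0.0282), but with its second probe set it did not pass. Thrsp, the lipogenic protein Spot 14, fell by 0.73 (limma adjusted p = 0.019), and Scd, the stearoyl-CoA desaturase, by 0.65 (limma adjusted p = 0.0323). Scd and Thrsp were among the brightest probe sets of the array, with vehicle means of 5004 ± 730.2 and 4204 ± 601 (SD, n = 3 each).

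The other 4 fatty acid genes beside Acacb did not pass. Acly, which splits cytosolic citrate into acetyl-CoA, had intensities of 1420.5, 754 and 2356 with vehicle and 647, 800.4 and 653 with E2, and its difference of -0.95 had a standard error of 0.30 (limma adjusted p = 0.167). The second vehicle rat lay inside the range of the E2 rats. Elovl5, an elongase of polyunsaturated fatty acids, differed by -0.30 (limma adjusted p = 0.522). Its E2 rats (1047 to 1239) were all below its vehicle rats (1329 to 1517), as for 8.05% of all probe sets. The desaturase genes Fads1 and Fads2, chromosomal neighbours that act on polyunsaturated fatty acids, differed by 0.03 and 0.13, with overlapping ranges.

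**Figure D2:**
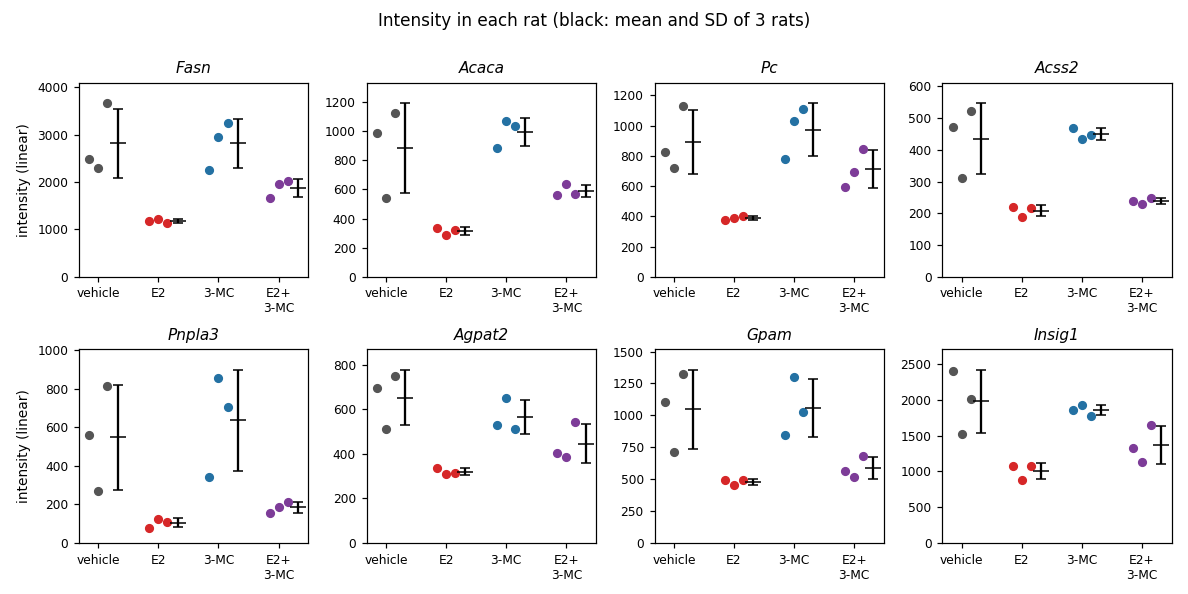
Linear intensity (vertical axis, from 0) of 8 genes that fell with E2, 1 point per rat, for the vehicle, E2, 3-MC and E2 + 3-MC groups, with the mean and SD of 3 rats in black. The E2 rats form the lowest group in each panel, as for Fasn with 1134 to 1226 against 2303 to 3662 with vehicle.

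In triglyceride synthesis, the gene with the largest fall of all 38 was Pnpla3, a lipid droplet protein that is a known SREBP target. Its intensity was 562, 268 and 813 with vehicle, 79.8, 126 and 111 with E2, 344, 855 and 707 with 3-MC, and 155, 189 and 213 with E2 + 3-MC. The rats without E2 differed widely among themselves, yet all lay above all rats given E2. The log2 difference with E2 was -2.10 (SE 0.36, 4.28-fold, limma adjusted p = 0.0117).

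Gpam and Agpat2 encode the mitochondrial glycerol-3-phosphate acyltransferase and the acyltransferase that follows it, the opening steps of glycerolipid synthesis. Agpat2 intensities were 694, 512 and 751 with vehicle, 338, 310.3 and 313 with E2, 531, 651 and 511 with 3-MC, and 406, 387 and 545 with E2 + 3-MC. Gpam intensities were 1108, 712 and 1323 with vehicle, 492, 453 and 492 with E2, 845, 1302 and 1024 with 3-MC, and 562, 518 and 683 with E2 + 3-MC. The E2 rats were the lowest 3 of the 12 for both genes. Agpat2 fell by 0.97 (SE 0.17, limma adjusted p = 0.0124) and Gpam by 1.06 (SE 0.21, limma adjusted p = 0.0241).

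Dgat2 and Dgat1 encode the acyltransferases that complete a triglyceride. Dgat2 was at 855, 794 and 811 with vehicle, 354, 424 and 432 with E2, 598, 1060.5 and 835 with 3-MC, and 441, 389 and 788 with E2 + 3-MC. Vehicle and E2 rats were far apart, and the difference of -1.0003 lay just outside the threshold (SE 0.24, limma adjusted p = 0.0559). Dgat1 was at 404, 319.6 and 316 with vehicle and 326, 295 and 307 with E2, overlapping ranges with a difference of -0.15 (limma adjusted p = 0.844). The phosphatidate phosphatase gene Lpin1 differed by -0.46 (limma adjusted p = 0.315).

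In sterol synthesis, 0 of 13 genes passed with E2 by limma or by the methods' t-test (2 did by limma after quantile normalization), and 3 had an unadjusted p under 0.05, each with a lower E2 mean (4.89% of all probe sets). The difference was below 0 for 12 of 13. The 3 genes, Cyp51, Msmo1 and Nsdhl, act in the demethylation of lanosterol on the way to cholesterol. Cyp51 was at 427, 263 and 391 with vehicle, 255, 224 and 165 with E2, 544, 379 and 400.4 with 3-MC, and 216, 301 and 302 with E2 + 3-MC (E2 against vehicle -0.70, SE 0.21, limma adjusted p = 0.154). Msmo1 was at 195, 185 and 217 with vehicle, 149, 138 and 107 with E2, 272, 182 and 197 with 3-MC, and 151, 193 and 232 with E2 + 3-MC (-0.55, SE 0.18, limma adjusted p = 0.184). Each E2 rat was below each vehicle rat for both genes. Nsdhl was at 310.3, 219.6 and 367 with vehicle, 204, 218 and 219 with E2, 379.8, 329 and 344 with 3-MC, and 222, 239.7 and 257 with E2 + 3-MC, with vehicle and E2 barely apart (-0.43, SE 0.16, limma adjusted p = 0.271).

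Lss, the cyclase that makes lanosterol, was at 166, 166 and 227 with vehicle and 149, 142 and 150.3 with E2 (-0.30, SE 0.14, limma adjusted p = 0.427). Fdft1, the squalene synthase, was at 413, 303 and 321 with vehicle, 297, 291 and 279 with E2, 395, 392.04 and 302 with 3-MC, and 267, 256 and 372 with E2 + 3-MC. Its E2 rats were just below the vehicle rats, by 0.24 on average (limma adjusted p = 0.673). Mvk, Pmvk and Mvd, which act in sequence on mevalonate, differed by -0.09, -0.01 and 0.00. Idi1 (-0.35), Fdps (-0.22), Sqle (-0.07), Sc5d (-0.24) and Dhcr7 (-0.24) did not pass either.

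**Figure D3:**
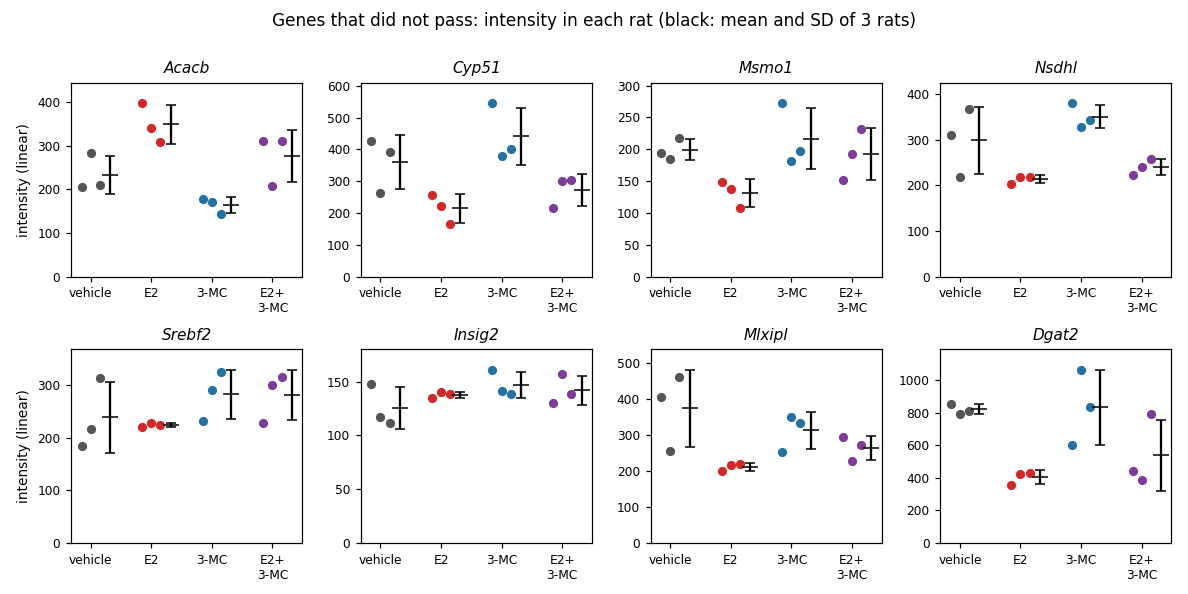
Linear intensity (vertical axis, from 0) of 8 genes that did not pass with E2, 1 point per rat in the vehicle, E2, 3-MC and E2 + 3-MC groups, with the mean and SD of 3 rats in black. Acacb is highest in the E2 rats (308 to 397) and lowest with 3-MC (144 to 178), and Dgat2 is at 354 to 432 with E2 against 794 to 855 with vehicle.

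Of the regulators, Insig1 fell. It is itself a well known SREBP target, and its product retains SCAP in the endoplasmic reticulum. Insig1 was at 2400.2, 1519.8 and 2013 with vehicle, 1069, 877 and 1076 with E2, 1863, 1930.1 and 1779.8 with 3-MC, and 1329, 1134 and 1653 with E2 + 3-MC. All E2 rats were below all 9 other rats, and the log2 difference from vehicle was -0.94 (SE 0.18, 1.92-fold, limma adjusted p = 0.0178). A second Insig1 probe set differed by -1.12 without passing (limma adjusted p = 0.0589).

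The Srebf2 transcript did not pass with E2. It was at 185, 218 and 314 with vehicle, 222, 228 and 224 with E2, 232, 290.5 and 325 with 3-MC, and 228, 299.9 and 316 with E2 + 3-MC, so that the E2 values fell inside the vehicle range (-0.05, SE 0.19, limma adjusted p = 0.954). Without the third vehicle rat the sign of this difference turned, to 0.15. Insig2, the other INSIG gene, was at 148, 117 and 112 with vehicle, 135, 140.5 and 138 with E2, 161, 141 and 139 with 3-MC, and 130.2, 157 and 139 with E2 + 3-MC (0.13, SE 0.13, limma adjusted p = 0.792). Scap also differed by 0.13 (SE 0.12, limma adjusted p = 0.773). Mlxipl was at 406, 255 and 463 with vehicle, 199, 216 and 219.8 with E2, 254, 351 and 335 with 3-MC, and 294, 229 and 272 with E2 + 3-MC. Its E2 rats were below its vehicle rats, with a difference that did not pass (-0.74, SE 0.19, limma adjusted p = 0.0895). The array measures transcripts, and SREBP activity is set largely by cleavage of the protein.

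These calls depended on which rats were included. When each of the 12 rats was left out in turn, Fasn, Acaca and Pc passed in all 12 fits, Acss2 and Pnpla3 in 11, Agpat2 in 10, Insig1 in 9, Slc25a1 and Thrsp in 8, Scd and Gpam in 7, Elovl6 in 6 and Me1 in 4. Dgat2 passed in 3 of the 12 fits, and Acly and Mlxipl in 1 each, that without the second vehicle rat. The 13 genes became 4 without the second E2 rat, 6 without the first E2 rat, 6 without the first vehicle rat, 7 without the third E2 rat and 8 without the third vehicle rat, and 15 without the second vehicle rat, which was the lowest of the vehicle rats in 27 of the 38 genes (71.1%, against 58.6% of all probe sets). Acss2 was lost without the second E2 rat, Pnpla3 without the first E2 rat, and Insig1 without the first vehicle rat, the first E2 rat or the second E2 rat.

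Other genes of these pathways, listed beside the 38, moved less. Of 39 tested, Scd2, a second desaturase, was the only gene to pass with E2, falling by 0.88 (SE 0.19, limma adjusted p = 0.036) from 569 ± 147 to 299.9 ± 60.6 (SD, n = 3 each). Counts were 1 of 8 other fatty acid genes, 0 of 10 other triglyceride genes, 0 of 8 other sterol genes and 0 of 10 other regulators and LXR targets. The remaining 3 genes, Idh1, Tkt and Taldo1, did not pass. Acsl1, which activates fatty acids (-0.79, limma adjusted p = 0.0701), the acyltransferases Agpat3 (-0.64, 0.0838) and Gpat3 (-0.56, 0.112) and the transketolase gene Tkt (-0.59, 0.175) had lower E2 means without passing. Plin2, which coats lipid droplets, had a higher one (0.74, 0.104).

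Markers of several cell types differed between the vehicle and E2 glands. Of 13 white adipocyte markers, 3 fell with E2, namely Retn, Pparg and Lpl, which encode resistin, the adipogenic receptor PPARγ and lipoprotein lipase. The level of that list, the median log2 difference of its markers from the vehicle mean, was -0.17 to 0.10 in the vehicle rats and -0.49 to -0.27 in the E2 rats, and Adipoq, the adiponectin gene, was at 3894 ± 307 with vehicle and 3067 ± 281 with E2 (SD, n = 3 each). Of 14 luminal epithelial markers 6 rose, with list levels of -0.03 to 0.14 in vehicle and 0.50 to 0.81 in E2 rats. Markers of endothelium (0 of 8 passed, median -0.48), fibroblasts (0 of 8, -0.49) and skeletal muscle (0 of 11, -1.45) were also lower on average. Of 9 myeloid markers Cd14 rose while the median was -0.47. Of 3 brown adipocyte markers tested 0 passed, and they differed by -2.14 to -0.04, with a median of -0.35. Mean intensity went from 40.2 with vehicle to 38.8 with E2 for Ucp1, and from 46.9 to 32.7 for Ppargc1a. Cox8b went from 2651 to 249, and ranged from 30.1 to 4386 among the vehicle rats. Dio2, too dim to be tested, went from 7.47 to 18.9. The levels of the fatty acid and triglyceride lists were -0.90 to -0.82 and -0.97 to -0.95 in the E2 rats, below the level of the white adipocyte list. Single markers of that list differed by -1.60 to 0.21, with 12 of 13 below 0. From vehicle to E2, mean intensity went from 982 to 313 for Retn, 649 to 308 for Pparg and 3973 to 2408 for Lpl. That of Cfd, also on that list, went from 2833 to 3268.

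With the white adipocyte level of each array as a covariate, 0 of 38 genes passed by limma and 50 probe sets did over the whole array. The differences in that fit were -1.26 for Fasn, -1.44 for Acaca, -1.06 for Pc, -1.97 for Pnpla3 and -0.69 for Insig1, with medians of -0.91 for the fatty acid genes, -0.62 for the triglyceride genes and -0.24 for the sterol genes. With the skeletal muscle level as a covariate 15 genes passed. The white adipocyte level did not overlap between vehicle (-0.17 to 0.10) and E2 rats (-0.49 to -0.27), and its list holds Retn, Pparg and Lpl. The fit with that level therefore cannot cleanly separate it from E2 treatment. The part of these markers in the lower lipid synthesis transcripts was not tested.

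**Figure D4:**
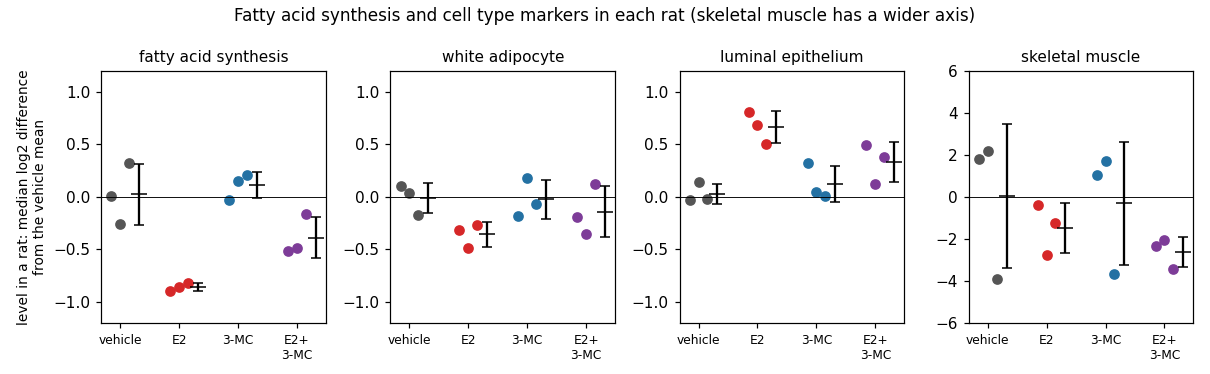
Level of the fatty acid genes and of 3 marker lists in each rat, as the median log2 difference of the list from the vehicle mean (vertical axis), with the mean and SD of 3 rats in black. With E2 the fatty acid genes lie at -0.90 to -0.82, the white adipocyte markers at -0.49 to -0.27 and the luminal epithelial markers at 0.50 to 0.81, and the skeletal muscle markers, on a wider axis, range from -3.89 to 2.20 in the vehicle group.

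3-MC alone gave no call among these genes. Compared with vehicle, 0 of 38 genes passed by limma, as did 0% of all probe sets tested, and 0 passed by the methods' t-test. At an unadjusted p under 0.05, Sqle, the squalene epoxidase, was higher (0.40, SE 0.19) and Acacb was lower (-0.46, SE 0.18), against 3.06% and 1.18% of all probe sets. Acacb was at 178, 170.2 and 144 with 3-MC, below all vehicle rats, as were 2.31% of all probe sets. The sterol genes had a median difference of 0.20, with all 13 above 0, and 36.5% of all probe sets were below 0 in this comparison, whose median over all probe sets was 0.06. The 38 genes together had a median of 0.10. In each of the 13 genes that fell with E2, the ranges of the 3-MC and vehicle rats overlapped.

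In the rats given both compounds, the mean level was -0.39 for the fatty acid branch and -0.57 for the triglyceride branch, between the means of the E2 rats (-0.86 and -0.96) and the vehicle rats (0.03 and -0.02), and no gene passed against either group. Compared with vehicle, 0 of 38 genes passed with E2 + 3-MC by limma, against 0.163% of all probe sets, and 0 by the methods' t-test. At an unadjusted p under 0.05, 12 were lower and 0 higher (2.73% and 6.99% of all probe sets). The difference was below 0 for 30 of 38 (35.1% of all probe sets), and in 7 every rat given both was below every vehicle rat (3.68%). Medians of the markers were -2.45 for skeletal muscle, 0.78 for myeloid cells, 0.34 for luminal epithelium and -0.15 for white adipocytes, of which Retn fell, and their part in these differences was not tested. Acss2 came closest, with a difference of -0.80 (SE 0.16, limma adjusted p = 0.0948). Without the second vehicle rat 5 genes passed. The median was -0.37 over the fatty acid genes, -0.59 over the triglyceride genes, -0.08 over the sterol genes and 0.05 over the regulators.

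Compared with E2 alone, 0 of 38 genes passed with E2 + 3-MC by limma, as did 0% of all probe sets, and 0 passed by the methods' t-test. A limma fit restricted to these 2 groups gave 6 genes, all higher with both compounds, and 359 probe sets in all. In the fit of 4 groups, 10 genes were higher and 1 lower at an unadjusted p under 0.05 (5.99% and 2.77% of all probe sets). The E2 + 3-MC mean was above the E2 mean in 33 of 38 genes, while 40.9% of all probe sets were below it. In 18 of 38 every rat given both was above every rat given E2 alone (12% of all probe sets). Cell type markers differed too, although 0 markers passed. Myeloid markers had a median difference of 1.10, with 7 of 9 higher without overlap and list levels of -0.02 to 1.15 with both compounds against -0.59 to -0.26 with E2. Luminal epithelial markers had a median of -0.33, with 7 of 14 lower without overlap, white adipocyte markers one of 0.22, with all 13 above 0, and skeletal muscle markers one of -1.11. The part of these markers in the higher lipid synthesis transcripts was not tested.

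The size of this difference varied between genes. In the fatty acid branch it was largest for Acaca (0.88, SE 0.21, limma adjusted p = 0.371), followed by Pc (0.83), Fasn (0.66), Elovl6 (0.66) and Scd (0.60), and the gene nearest to 0 was Acly, with 732, 863 and 675 in rats given both (0.11, SE 0.30). Fads1, at 563, 438 and 716 with both compounds, was the gene lower at an unadjusted p under 0.05 (-0.35, SE 0.16). In the triglyceride branch Pnpla3 was largest (0.74, SE 0.36, limma adjusted p = 0.584) and Dgat1 nearest to 0, with 311, 249.99 and 435 in rats given both (0.06). Among sterol genes these were Msmo1 (0.49, SE 0.18, limma adjusted p = 0.486) and Fdft1 (0.03), and among regulators Insig1 (0.43, SE 0.18, limma adjusted p = 0.538) and Insig2 (0.03).

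The differences from vehicle can be set side by side for the 13 genes that fell with E2, bearing in mind that both comparisons use the same vehicle rats and that the 13 were picked for their low E2 values. Scd was at -0.65 with E2 and -0.05 with E2 + 3-MC, Thrsp at -0.73 and -0.16, Pc at -1.14 and -0.31, and Acaca at -1.39 and -0.51. Fasn was at -1.22 and -0.55, Me1 at -1.06 and -0.50, Slc25a1 at -0.81 and -0.43, and Insig1 at -0.94 and -0.51. Agpat2 was at -0.97 and -0.53, Elovl6 at -1.55 and -0.88, Pnpla3 at -2.10 and -1.36, Gpam at -1.06 and -0.78, and Acss2 at -0.98 and -0.80. The value with both compounds was thus 8.16% of the E2 value for Scd and 81.4% for Acss2, with a median of 52.6%. None of the 13 genes passed in the test of E2 + 3-MC against E2.

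**Figure D5:**
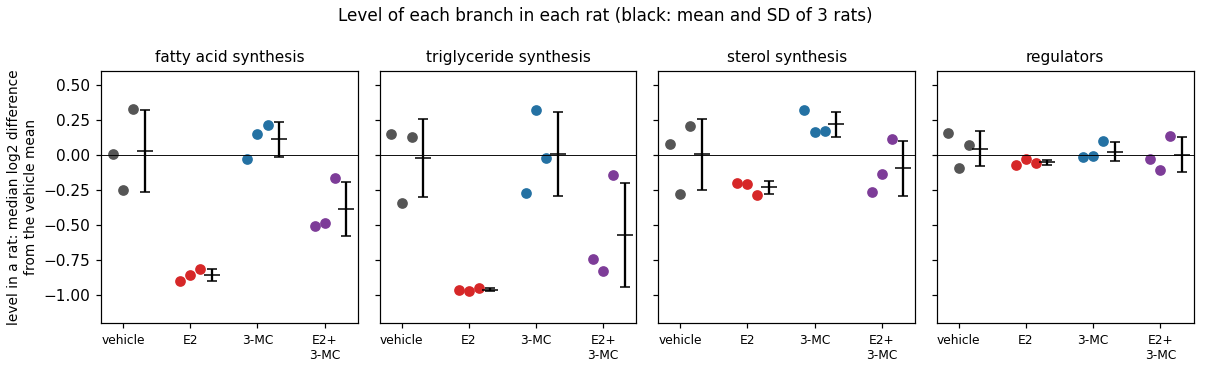
Level of each branch in each rat, as the median log2 difference of its genes from the vehicle mean (vertical axis), for the vehicle, E2, 3-MC and E2 + 3-MC groups, with the mean and SD of 3 rats in black. Fatty acid and triglyceride genes lie at -0.90 to -0.82 and -0.97 to -0.95 with E2 and at -0.51 to -0.16 and -0.83 to -0.15 with E2 + 3-MC. The sterol genes with E2 (-0.28 to -0.20) overlap the lower end of the vehicle rats (-0.28 to 0.21). With each array centred on its median (not plotted), the sterol levels were 0.02, -0.17 and 0.16 with vehicle. They were -0.27, -0.29 and -0.24 with E2, and these ranges did not overlap.

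In these branches the rats given both compounds differed among themselves more than the E2 rats did. Their triglyceride branch levels were -0.74, -0.83 and -0.15 and their fatty acid branch levels -0.51, -0.49 and -0.16, with the third rat nearest to vehicle in both. In that rat the white adipocyte level was 0.12, against -0.19 and -0.36 in the other rats given both, and the part of this in the branch levels was not tested. Dgat2 shows the pattern in a single gene, with 441, 389 and 788.

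Compared with 3-MC alone, which gives the effect of E2 in rats that received 3-MC, 0 of 38 genes passed by limma, against 0.111% of all probe sets, and 0 by the methods' t-test. At an unadjusted p under 0.05, 15 genes were lower and 1 higher (2.22% and 2.81% of all probe sets). The difference was below 0 for 33 of 38 (46.4%), and in 15 the rats given both were all below the 3-MC rats (3.48%). Skeletal muscle markers had a median difference of -2.36 in this comparison, with 11 of 11 below 0. Fibroblast markers had one of -0.46, with 8 of 8 below 0 and 5 at an unadjusted p under 0.05, and of 13 white adipocyte markers Retn fell, with a median of -0.02. The part of these markers in the lower transcripts was not tested. Acss2 was again nearest to the threshold (-0.88, SE 0.16, limma adjusted p = 0.0817), and the differences of Pnpla3 (-1.61), Elovl6 (-1.24), Acly (-1.18) and Me1 (-0.98) were larger but farther from it. Acacb was the gene that was higher at an unadjusted p under 0.05, at 311, 206 and 311 with both compounds against 144 to 178 with 3-MC (0.68, SE 0.18, limma adjusted p = 0.411). The median was -0.49 over the fatty acid genes, -0.49 over the triglyceride genes and -0.29 over the sterol genes. Without the second vehicle rat 4 genes passed, and without the first 3-MC rat or the third vehicle rat 1 did.

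The interaction tests whether the effect of E2 differed between rats with and without 3-MC. It gave 0 calls by limma among the 38 genes, and 0% among all probe sets. At an unadjusted p under 0.05, 5 genes had a smaller fall in the presence of 3-MC, namely Scd (0.63, SE 0.19), Pc (0.70, SE 0.26), Agpat2 (0.64, SE 0.24), Fasn (0.65, SE 0.26) and Acaca (0.65, SE 0.30), against 1.59% of all probe sets with an interaction of that sign, and their limma adjusted p was 0.982. No gene had the opposite sign at that level (2.83% of all probe sets). The median interaction was 0.21 over the fatty acid genes, 0.41 over the triglyceride genes and -0.03 over the sterol genes. A different effect of E2 in the presence of 3-MC was therefore not detectable for any of these genes with 3 rats per group.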

How the data were processed

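Total RNA from the glands of each rat was labeled and hybridized to 1 Affymetrix Rat Gene 1.0 ST array. Per the labels and the methods, the authors summarized probe signals with PLIER in Expression Console, and the deposited values are linear intensity values per probe set. Quantile normalization, a baseline set to the control median and a filter on the bottom 20th percentile are also described in the methods, whereas the values used here keep every probe set and differ in array median. The methods' gene model build is not given in the sources used here.

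Groups came from the sample titles. From the values, log2(intensity + 16) was taken, and the 23371 probe sets with a mean above the 20th percentile were fitted with limma 3.58.1 (R 4.3.3) as 1 model of 4 group means over 12 arrays. Benjamini-Hochberg adjustment covered all probe sets tested and all tests were two-sided. A difference passed at an adjusted p under 0.05 with at least 1.5-fold, and the interaction at that adjusted p alone. List levels are, for each rat, the median over genes of the log2 difference from the vehicle mean, and fold differences are on the log2(intensity + 16) scale. Probe sets were named from the platform annotation, of which 15310 carry 1 symbol, 323 several and 13581 none here. The 40 genes, the companion and marker lists and the tests were chosen with earlier results of these data known. Values in every rat are given for the 4 genes of each branch with the smallest E2 p, for the regulators and Acacb, and for the genes with the largest and smallest difference of E2 + 3-MC from E2 in each branch. Exceptions are Scap, given as a difference only, and Lss, Acly and Dgat1, given for some of the groups only. The procedure was tested on simulated data. The number of arrays limits the precision, and 0 sample columns were left out. Plots used matplotlib 3.10.9 under Python 3.11.15.

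The rats are numbered 1 to 3 in each group, and nothing states that a number marks a shared litter or day. Deviations from the group means of same-numbered arrays correlated across probe sets at 0.341, 0.442 and 0.564 for vehicle and 3-MC, all above 0.1. The reported tests use no pairing, and a fit with these pairs as a block was run as an alternative. No other 2 groups had all 3 above 0.1. Skeletal muscle levels ran alike by number in the vehicle rats (1.82, 2.20 and -3.89) and the 3-MC rats (1.05, 1.70 and -3.67). Their part in these correlations was not tested. Alternatives were other filters, pseudocounts of 1 and 32, quantile normalization, centring of arrays, 1 probe set per gene, a second probe set of a gene, limma on the groups compared, with trend and robust settings or a replicate block, treat, no fold threshold, the methods' t-test, marker levels as covariates and leaving out each rat. The block in the 6 arrays of vehicle and 3-MC was chosen after seeing the data.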

Additional observations from a re-analysis of the deposited data

How the results depend on the processing

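With E2 against vehicle, the count of 13 genes stayed at 13 without a filter, with the stricter filter, with either other pseudocount, with centred arrays and with no fold threshold, and was 14 with 1 probe set per gene, 15 after quantile normalization, 15 with skeletal muscle as a covariate, 12 with trend and robust settings, 11 with second probe sets and 9 by limma on the 2 groups. It was 0 by the methods' t-test on the values used here, which called 7 probe sets in all, 0 by treat, which called 24, and 0 with white adipocyte level as a covariate, which left 50. The same 3 settings gave 0 fatty acid genes, 0 triglyceride genes and 0 regulators. Limma on the 2 groups gave 4 fatty acid genes, quantile normalization gave 2 sterol genes, and the regulators were 0 with second probe sets and 2 with muscle as a covariate. Leaving out 1 rat gave 4 to 15 genes in all, 3 to 10 in fatty acid synthesis, 1 to 4 in triglyceride synthesis, 0 in sterol synthesis and 0 to 2 regulators. The median over fatty acid genes was then -1.05 to -0.64, and that over regulators -0.21 to 0.0594, the latter without the third vehicle rat. The median over regulators was -0.17 with muscle as a covariate, and that over triglyceride genes -0.62 with white adipocyte level as a covariate. In that fit the differences of Dgat1 and Fdft1 turned to 0.25 and 0.0081, and Srebf2 turned to 0.15 without the third vehicle rat. The causes were not tested, and leaving out a rat also makes its group smaller.

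Against 3-MC, E2 + 3-MC gave 1 gene with centred arrays, 1 after quantile normalization, 3 by limma on the 2 groups, 2 with muscle as a covariate and 0 to 4 when a rat was left out, where the design above gave 0. Against E2 it gave 6 by limma on the 2 groups. Against vehicle it gave 1 with centred arrays, 1 after quantile normalization and 0 to 5 when a rat was left out. With the rat number as a replicate block in the 4-group model, 14 genes passed with E2 (Dgat2 joined, limma adjusted p = 0.0433) and 1 in E2 + 3-MC against 3-MC, and no other count changed. In the 6 arrays of vehicle and 3-MC with the pairing as a block, 0 genes passed. The interaction was not run by the methods' t-test, which compares 2 groups.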

Other observations

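The 38 genes varied little among the E2 rats. The median coefficient of variation over the 38 was 7.15% with E2, against 24.0% with vehicle, 13.2% with 3-MC and 15.1% with E2 + 3-MC, while over all probe sets tested it was 11.2%, 13.8%, 15.8% and 12.5%. In the sterol branch it was 8.04% with E2 and 24.2% with vehicle. The second vehicle rat was the lowest of its group in 11 of 13 sterol genes (84.6%, against 58.6% of all probe sets). Examples are Idi1 (38.04, against 99.7 and 83.0) and Fdps (356, against 624 and 578). These are values of 3 rats each, with no test.

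Elovl6 had the widest spread among the vehicle rats, at 338, 148 and 619.8, and one of the narrowest among the 3-MC rats, at 412, 402 and 415. Me1 was similar, at 980.2, 590.4 and 1495 with vehicle and 1301, 1394 and 1335 with 3-MC, and its mean of 1343 ± 47.2 with 3-MC was the highest of the 4 groups (difference from vehicle 0.49, limma adjusted p = 0.92).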
